A study of Rattus norvegicus with 8 samples.

Results

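The mu-class glutathione transferases are a family of soluble liver enzymes, and their transcripts were followed here in rats given the dithiolethione D3T (3H-1,2-dithiole-3-thione). Members were the probe sets whose annotated gene symbol begins with Gstm and a digit, which gave 8 of the 8740 non-control probe sets of the array, all matched to 1 gene each and none to several. Of the 6 genes of interest, Gstm1 had 3 probe sets, Gstm2 had 2, Gstm5 had 2 and Gstm7 had 1, while no probe set was annotated to Gstm3 or Gstm4, which were not analysed here. Liver RNA came from 8 male Fischer 344 rats, whose age the labels give as 6 without a unit, fed AIN 76A chow, with 1 Affymetrix rat array per animal. The 4 treated rats were gavaged on days 1, 3 and 5 with D3T in saturated sucrose, at 0.3 mmol for each kg of weight. The other 4, called vehicle rats, were given only the sucrose solution (0.2 ml), with those days named for 3 of them and none for vehicle replicate 2. The tissue was whole liver, so fewer cells of a type and less RNA per cell cannot be told apart.

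Glutathione transferases join the tripeptide glutathione to reactive, electron-poor molecules such as epoxides, which makes them soluble and ready for export. Mu-class subunits pair with one another into dimers, and Gstm1 and Gstm2 encode the subunits long known in rat liver as Yb1 and Yb2. D3T is known to induce such enzymes by way of Nrf2, the product of Nfe2l2, which binds antioxidant response elements in DNA. The comparison asks how each mu-class transcript differed between D3T-treated and vehicle-treated livers.

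In the RefSeq annotation of the rat assembly GRCr8 the 9 mu-class genes lie in 1 run on chromosome 2 in the order Gstm5, Gstm6l, Gstm7, Gstm6, Gstm3l1, Gstm3, Gstm2, Gstm1 and Gstm4, with 2 lncRNA genes between them and no other protein-coding gene. Gstm1 and Gstm2, the genes with a probe set that rose after D3T, are next to each other. For each gene the 250 bases before the 1 start site that the RefSeq promoter table gives were searched, and sequence is shown for the 4 genes with probe sets, so that the pair that rose can be read beside Gstm7, which had no change past the threshold, and Gstm5, which was too dim to test. The sequences are from RefSeq, build GRCr8, read in the direction of transcription. A gene can have other starts: the listed start is at the outer end of the annotated gene for Gstm5, but 45 bases inside it for Gstm2, 46 for Gstm7 and 2624 for Gstm1. The Gstm1 window therefore lies wholly within the annotated gene, and whether it is exon or intron of another transcript was not examined. The windows of Gstm2 and Gstm7 are shown up to the gene's outer end. The sequences shown span chr2:198343384-198343633 for Gstm1, chr2:198316963-198317167 for Gstm2 and chr2:198260366-198260569 for Gstm7, all on the minus strand, and chr2:198219519-198219768 for Gstm5 on the plus strand. Capitals mark matches, on either strand, to the core of the antioxidant response element, TGACNNNGC, and to the TATA box core, TATAAA, a motif that was added after the sequences had been seen.
Gstm1: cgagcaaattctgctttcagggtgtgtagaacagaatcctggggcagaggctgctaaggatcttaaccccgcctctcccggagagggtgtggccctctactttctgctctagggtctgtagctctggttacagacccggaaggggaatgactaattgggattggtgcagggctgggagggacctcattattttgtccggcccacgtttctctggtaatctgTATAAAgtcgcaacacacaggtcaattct
Gstm2: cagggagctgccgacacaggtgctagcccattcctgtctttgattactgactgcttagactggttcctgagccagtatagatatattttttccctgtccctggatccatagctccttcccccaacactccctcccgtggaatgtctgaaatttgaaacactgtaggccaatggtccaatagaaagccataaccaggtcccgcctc
Gstm7: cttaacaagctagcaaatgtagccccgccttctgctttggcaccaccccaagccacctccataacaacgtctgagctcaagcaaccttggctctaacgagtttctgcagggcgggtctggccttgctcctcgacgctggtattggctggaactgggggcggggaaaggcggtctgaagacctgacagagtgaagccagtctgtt
Gstm5: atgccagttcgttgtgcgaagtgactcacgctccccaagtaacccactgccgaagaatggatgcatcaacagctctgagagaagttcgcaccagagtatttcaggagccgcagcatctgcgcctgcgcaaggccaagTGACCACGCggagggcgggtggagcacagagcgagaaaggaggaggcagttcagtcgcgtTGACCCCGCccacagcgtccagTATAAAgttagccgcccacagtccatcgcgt
TGACNNNGC was found in neither the Gstm1 nor the Gstm2 window. It matched once in Gstm7, as TGACACAGC from 14 to 6 bases before the listed start, in the stretch inside the annotated gene that is not shown, and in Gstm5 at TGACCACGC (113 to 105 bases before the start) and TGACCCCGC (53 to 45 bases before). Of the 8 mu-class windows searched, with or without a probe set, 2 held TGACNNNGC. Among all 33469 windows of this length, 10.1% held it. TATAAA stood 29 to 24 bases before the start of Gstm1 and 31 to 26 before that of Gstm5. It was in 3 of the 8 mu-class windows, against 12.9% of all windows. A match is a description of letters, and elements outside these windows were not searched.

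Precision was set by 4 arrays per group, since array signals carry no count. Trimmed means of the arrays were between 500.9 and 501.0 as deposited, and log2 signals of any pair of arrays had correlations from 0.913 to 0.955 over probe sets. At most 31 of 8740 values were identical in a pair of arrays, so no array repeated another. All 6 mu-class probe sets with measurable signal have names ending in _s_at, the platform's mark for probes that match more than 1 sequence, so related mu-class transcripts may add to each.

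Gstm1 transcripts were over 2-fold higher after D3T by each of the 3 probe sets. Values are linear signal intensities, rescaled so that all arrays share 1 trimmed mean. On J02810mRNA_s_at the signal was 14566, 17499, 12168 and 13729 in the vehicle rats and 29135, 32968, 36429 and 33661 in the D3T rats. On X04229cds_s_at it was 13934, 16756, 13808 and 13528 with vehicle and 27483, 30076, 30195 and 35359 after D3T. On H32189_s_at it was 10553, 9818, 11705 and 12557 with vehicle and 26639, 27261, 29461 and 31583 after D3T. All 4 D3T arrays lay above all 4 vehicle arrays on each probe set, and the lowest D3T value exceeded the highest vehicle value 1.66-fold, 1.64-fold and 2.12-fold. D3T replicate 1 was the lowest of its group on all 3. Vehicle replicate 2 was the highest vehicle array on J02810mRNA_s_at and X04229cds_s_at and the lowest on H32189_s_at.

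The means on J02810mRNA_s_at were 14491 ± 2238 (SD, n = 4) and 33048 ± 3007, a log2 fold change of 1.20 ± 0.13 (SE) or 2.29-fold (95% confidence interval 1.89 to 2.79), with a limma adjusted p of 0.000349. X04229cds_s_at went from 14506 ± 1509 to 30778 ± 3300, which was 2.12-fold (1.78 to 2.53, limma adjusted p = 0.000345). H32189_s_at went from 11158 ± 1214 to 28736 ± 2251, which was 2.58-fold (2.18 to 3.06, limma adjusted p = 5.43e-05). Fold changes are ratios of geometric means, and p-values are Benjamini-Hochberg adjusted over all 5244 probe sets tested, with 0.05 as the threshold. Ordered by p, the 3 Gstm1 probe sets ranked 11, 24 and 25 of these 5244, and ordered by size of rise they ranked 49, 121 and 83 for H32189_s_at, X04229cds_s_at and J02810mRNA_s_at. The rises of the 3 did not differ detectably from one another in exact permutation tests chosen after the values were seen. The largest difference, H32189_s_at over X04229cds_s_at, was 0.28 on the log2 scale with a 95% confidence interval from -0.08 to 0.64 (exact two-sided p = 0.0857, adjusted p = 0.343 over 4 pairs of probe sets).

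**Figure D1:**
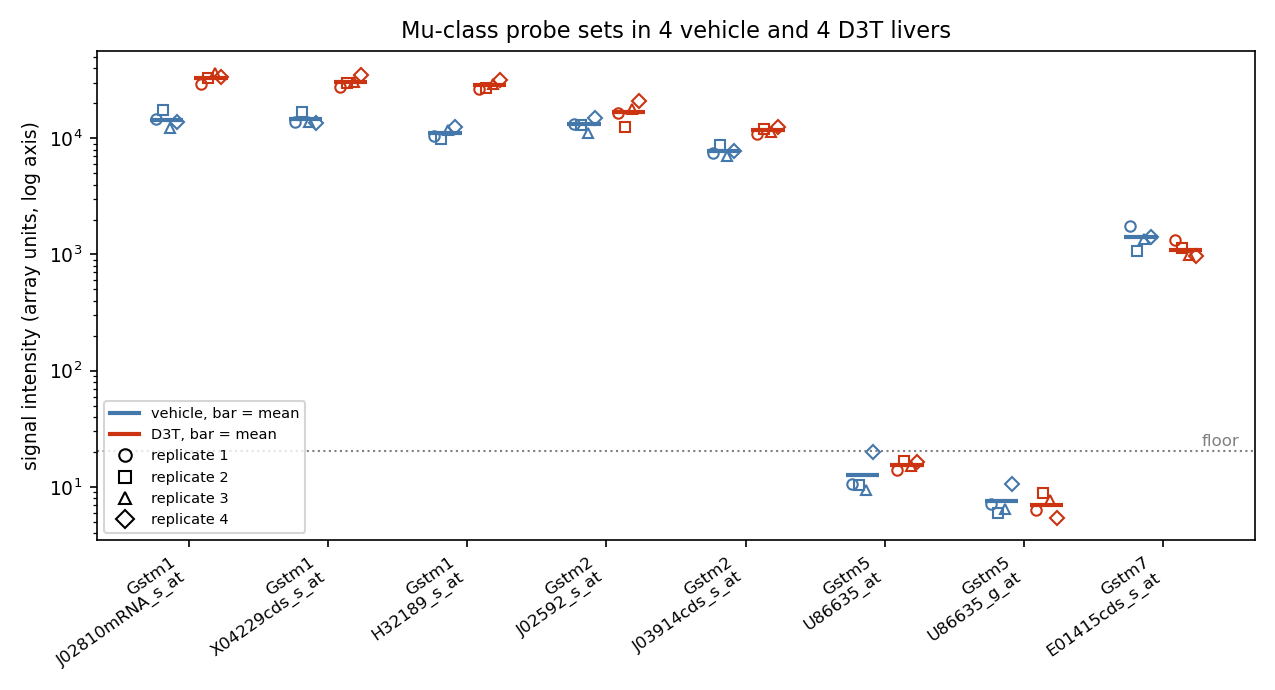
Signal intensity of the 8 mu-class probe sets on a log axis, with blue points for the 4 vehicle arrays, red points for the 4 D3T arrays, marker shapes for replicate numbers and bars for group means. The Gstm1 groups are apart on all 3 probe sets, the Gstm2 groups on J03914cds_s_at only, and both Gstm5 probe sets lie under the dotted floor of 20.4.

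Gstm2 transcripts rose less, and only 1 of the 2 probe sets passed the threshold. On J03914cds_s_at the signal was 7520, 8749, 7040 and 7696 with vehicle and 10885, 12083, 11295 and 12614 after D3T. Every D3T array was above every vehicle array, with the lowest D3T value 1.24-fold above the highest vehicle value. The means were 7751 ± 721 (SD, n = 4) and 11719 ± 777, which was 1.51-fold (95% confidence interval 1.29 to 1.78, limma adjusted p = 0.0074). With the actin 3'/5' signal ratio of each array as a covariate the log2 fold change was 0.54, little changed from 0.60, and did not pass (limma adjusted p = 0.192).

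On J02592_s_at the Gstm2 signal was 13370, 13058, 11081 and 15057 with vehicle and 16517, 12519, 17757 and 20863 after D3T. Here the groups overlapped, because D3T replicate 2 lay below 3 of the 4 vehicle arrays while the other 3 D3T arrays were above all of them. The means were 13142 ± 1630 (SD, n = 4) and 16914 ± 3453, with a log2 fold change of 0.35 ± 0.16 (SE) that did not pass (limma adjusted p = 0.171). Leaving out D3T replicate 2 gave 0.49 (limma adjusted p = 0.0525). The difference between the Gstm2 probe sets in response was -0.25 on the log2 scale, with a 95% confidence interval from -0.68 to 0.18 (exact two-sided permutation p = 0.229, adjusted p = 0.419).

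Gstm7, another mu-class subunit gene of the same cluster, had no change past the threshold. Its signal on E01415cds_s_at was 1772, 1081, 1368 and 1407 with vehicle and 1322, 1129, 986 and 962 after D3T. The groups overlapped, with vehicle replicate 1 highest and vehicle replicate 2 below 2 of the 4 D3T arrays. The means were 1407 ± 284 (SD, n = 4) and 1100 ± 166, with a log2 fold change of -0.35 ± 0.17 (SE), a 95% confidence interval from -0.72 to 0.03 and a limma adjusted p of 0.201.

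Gstm5 was not measurable above the floor of 20.4, the 20th percentile of all signals, to which lower values were raised. Its signals on U86635_at ran from 9.48 to 20.2 with vehicle and from 13.9 to 16.7 after D3T. On U86635_g_at they ran from 5.99 to 10.6 and from 5.39 to 8.88. All 16 values were under the floor, so both probe sets stayed outside the test and no fold change is given. Detection calls were not used here.

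Of the 8 mu-class probe sets, 6 were bright enough to be tested, and 4 of these were higher after D3T, none lower and 2 not past the threshold. Over all 5244 probe sets tested, 4.20% were called higher, 6.48% lower and 10.7% in either direction. The 4 probe sets called were also the 4 on which all D3T arrays lay above all vehicle arrays, which held for 7.89% of all probe sets tested, and no mu-class probe set had all D3T arrays below all vehicle arrays (11.3%). The 3 of Gstm1 were called with at least a 2-fold rise, as were 1.26% of all tested. Which probe sets were tested was set by mean signal over all arrays without regard to group.

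**Figure D2:**
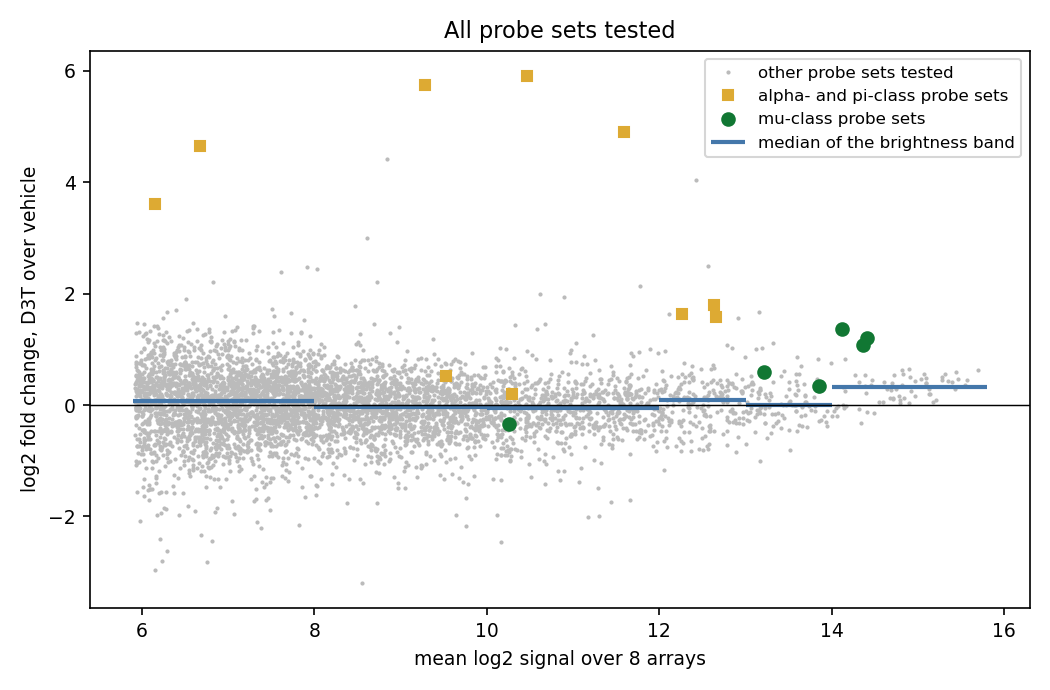
Log2 fold change of D3T over vehicle against mean log2 signal over 8 arrays for the 5244 probe sets tested, with mu-class probe sets in green, alpha- and pi-class probe sets in yellow and the median of each brightness band in blue. The band at or above a mean log2 signal of 14 has a median of 0.32, and the 3 Gstm1 points are its highest.

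The Gstm1 and Gstm2 probe sets were among the brightest on the array, and the brightest probe sets as a group were shifted upward after D3T. Of the 69 probe sets with a mean log2 signal of 14 or more, 85.5% had a positive fold change and the median was 0.32 on the log2 scale, against 0.02 over all probe sets tested. The 3 Gstm1 probe sets are in this band, and no other probe set of it rose as much as any of them. In the band from 13 to 14, which holds both Gstm2 probe sets, the median of 118 was 0.01. There 10 probe sets outside the family had a fold change at or above that of J03914cds_s_at and 23 at or above that of J02592_s_at. These bands were set after the data were seen. Quantile normalization, which gives all arrays the same distribution of signals, brought the median of the brightest band to -0.02. It left the Gstm1 rises at 2.02-fold for J02810mRNA_s_at, 1.86-fold for X04229cds_s_at and 2.24-fold for H32189_s_at, with limma adjusted p of 2.7e-05, 0.000609 and 0.000278. Gstm2 was then 1.45-fold higher on J03914cds_s_at (limma adjusted p = 0.00482) and 1.16-fold higher on J02592_s_at (limma adjusted p = 0.310).

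Gstm1 differed in its response from Gstm2 and from Gstm7. Each gene was taken by its brightest probe set, and the difference of log2 signals between 2 genes was compared between groups array by array. Gstm1 rose more than Gstm2 by 0.85 on the log2 scale (95% confidence interval 0.38 to 1.32), with all 4 D3T arrays above all vehicle arrays (exact two-sided permutation p = 0.0286, the smallest that 4 against 4 can give, adjusted p = 0.0429 over 3 pairs). Gstm1 also rose more than Gstm7, by 1.54 (0.86 to 2.22, the same exact p and adjusted p). Gstm2 against Gstm7 differed by 0.69 (0.01 to 1.37) and did not pass (exact two-sided permutation p = 0.0571, adjusted p = 0.0571). With J03914cds_s_at for Gstm2, a choice made after its values were seen, the differences were 0.60 (0.40 to 0.80) below Gstm1 and 0.94 (0.35 to 1.53) above Gstm7, and the groups did not overlap in either. Without D3T replicate 3 or without D3T replicate 4 the difference of Gstm1 from Gstm2 was 0.83 or 0.95 and that from Gstm7 was 1.45 or 1.47, each with an adjusted p of 0.0857 from the exact permutation test. The brightest probe sets of Gstm1, Gstm2 and Gstm7 lie in brightness bands with medians of 0.32, 0.01 and -0.06. With quantile normalization Gstm1 differed from Gstm2 by 0.80 and from Gstm7 by 1.27, and Gstm2 from Gstm7 by 0.47. The part of the band medians in these differences was not tested.

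**Figure D3:**
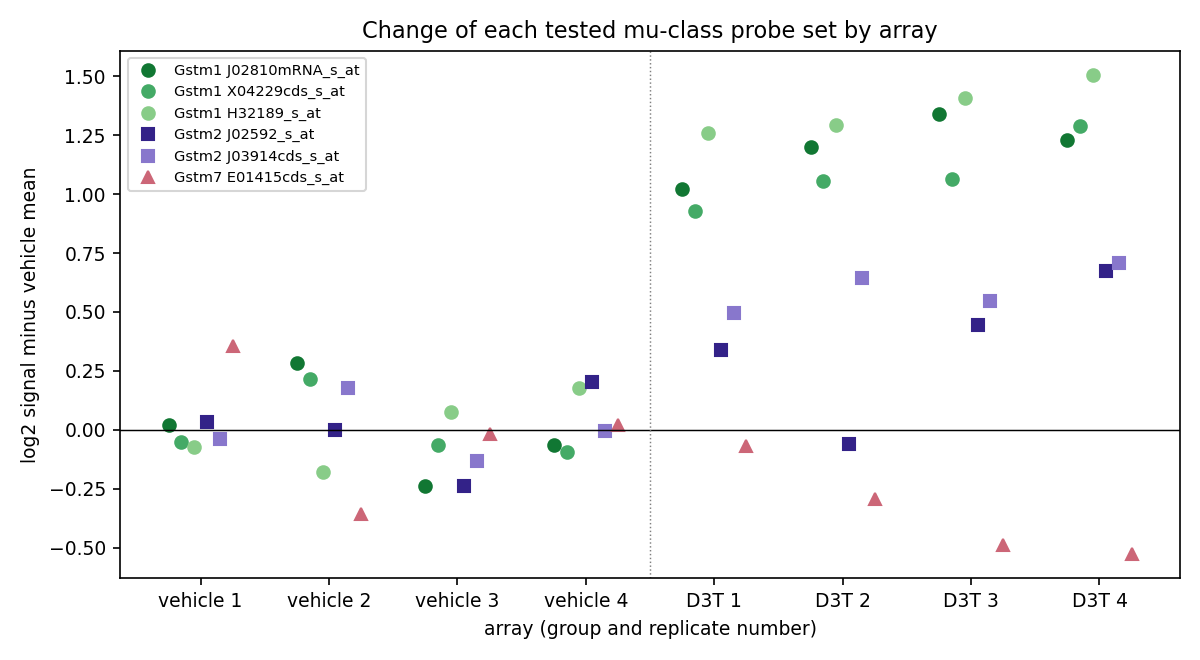
Log2 signal of the 6 tested mu-class probe sets on each array, relative to the mean of the 4 vehicle arrays, with circles for Gstm1, squares for Gstm2 and triangles for Gstm7. The Gstm1 points of the D3T arrays lie highest, Gstm2 on J02592_s_at lies within the vehicle range in D3T replicate 2, and all 4 Gstm7 points of the D3T arrays lie below 0.

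Against the transferases of other classes, Gstm1 rose by far less than the most inducible ones. The pi-class gene Gstp1 went from 569.5 ± 76.4 (SD, n = 4) to 17558 ± 5703 on its brightest probe set, and the alpha-class gene Gsta3 from 91.4 ± 35.4 to 4587 ± 740. Gstm1 rose less than Gstp1 by a difference of -3.70 on the log2 scale (95% confidence interval -4.26 to -3.14) and less than Gsta3 by -4.54 (-5.65 to -3.43). For both genes the size depends on the probe set, with rises from 12.2-fold to 53.5-fold over 3 probe sets of Gsta3 and of 29.9-fold and 59.9-fold on 2 of Gstp1. In both differences, all 4 D3T arrays lay below all vehicle arrays (exact two-sided permutation p = 0.0286, adjusted p = 0.0429 over 3 pairs). Against Gsta1, an alpha-class gene that went from 3394 ± 134 to 11992 ± 2766, the difference of -0.60 (-1.15 to -0.05) did not pass (exact two-sided permutation p = 0.0571, adjusted p = 0.0571). It passed in 3 of 14 alternatives, with quantile normalization at -0.74 (adjusted p = 0.0286), with cyclic loess at -0.69 (adjusted p = 0.0286) and without D3T replicate 3 at -0.75 (adjusted p = 0.0286).

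**Figure D4:**
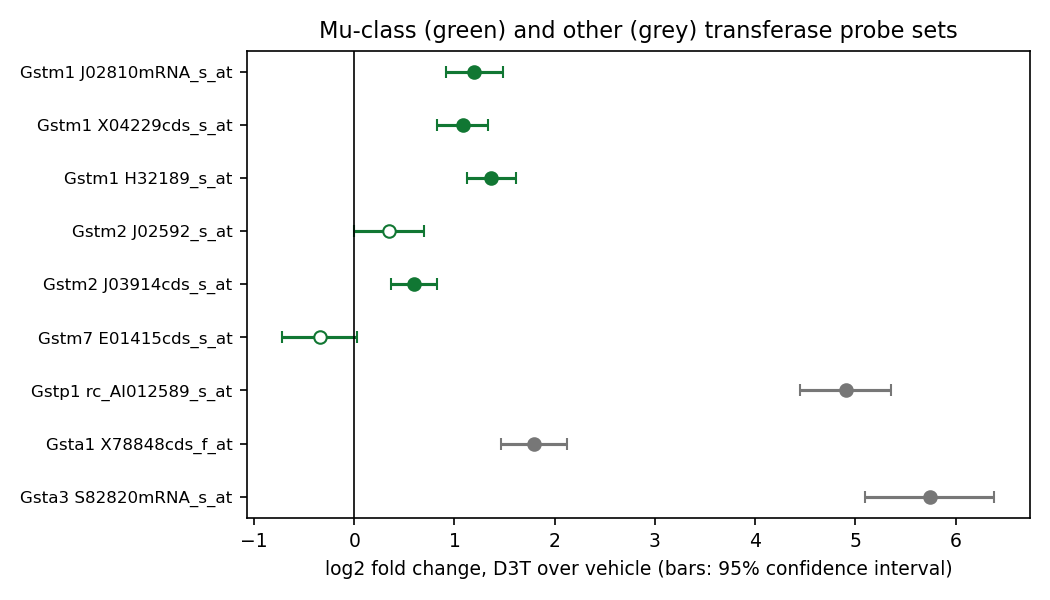
Log2 fold change of D3T over vehicle with 95% confidence intervals for the 6 tested mu-class probe sets (green) and the brightest probe sets of Gstp1, Gsta1 and Gsta3 (grey), filled where the adjusted p is under 0.05. Gstm1 lies between 1.08 and 1.37, below Gsta1 at 1.79, Gstp1 at 4.90 and Gsta3 at 5.74.

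Other genes of glutathione conjugation moved mostly upward. Of 12 transferase genes outside the mu class that were tested, 8 were higher and none lower, with a median log2 fold change of 0.55. Over all probe sets tested the median was 0.02, with 4.20% called higher and 6.48% lower. These 8 became 5 without vehicle replicate 3, vehicle replicate 4 or D3T replicate 4, also 5 with no intensity trend, with the replicate block or without shared-sequence probe sets, and 3 with the actin covariate. On their brightest probe sets Gsta3, Gstp1 and Gsta1 rose 53.5-fold, 29.9-fold and 3.47-fold, with 2.98-fold to 3.47-fold over 3 probe sets of Gsta1. Among 12 genes of glutathione supply, 4 were higher and none lower (median 0.32). Gpx2, a glutathione peroxidase, was 4.61-fold higher (limma adjusted p = 0.00684), Gsr, which reduces oxidised glutathione, 2.27-fold (limma adjusted p = 0.00146, and 2.13-fold to 5.41-fold over 3 probe sets) and Gclc, which carries out the first step of making glutathione, 2.10-fold (limma adjusted p = 0.0282). Gclc passed in 4 of 8 fits without 1 array. With the actin covariate none of the 4 passed: the log2 fold change was 2.05 for Gpx2 (2.20 without the covariate, limma adjusted p = 0.188), 1.07 for Gsr (1.19 without, limma adjusted p = 0.104) and 0.44 for Gclc (1.07 without, limma adjusted p = 0.599).

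Genes for the export of glutathione conjugates and their conversion to mercapturates were mostly not past the threshold, with 1 higher, 1 lower and 4 not called of 6 tested (median 0.28), against 4.20% higher and 6.48% lower over all probe sets. Abcc2, the pump that moves conjugates into bile, was 1.91-fold lower, from 1889 ± 298 to 984 ± 122 (SD, n = 4, limma adjusted p = 0.00513). With the actin covariate its log2 fold change was -1.04, against -0.93 without, and did not pass (limma adjusted p = 0.108). Acy1, an aminoacylase, was 1.47-fold higher (limma adjusted p = 0.0309) and passed in 3 of 8 fits without 1 array. Of 12 other genes known as targets of the factor encoded by Nfe2l2, 5 were higher and none lower (median 0.51), led by Akr7a3 at 16.5-fold, Aldh1a1 at 4.37-fold and Nqo1 at 3.44-fold. With the actin covariate 3 of the 5 passed, while Nqo1, at a log2 fold change of 1.67 against 1.78 without it, did not (limma adjusted p = 0.0802). Among 4 regulators tested, Hnf4a, a nuclear receptor of hepatocytes, was 1.41-fold higher (limma adjusted p = 0.0477), and it passed in none of the 8 fits without 1 array (limma adjusted p up to 0.556 over all alternatives). Of 3 Hnf4a probe sets tested, only 1 passed, with rises from 1.27-fold to 1.64-fold over the 3.

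The genes whose profile over the 8 arrays was most like that of Gstm1 were Ctxn1, Gsr, Cyp2b2, Fn3k and Ugt2b15. Likeness was the root mean square difference between log2 profiles, each centred on its own mean, over 3147 genes outside the family. It was 0.149 for Ctxn1, 0.204 for Gsr, 0.206 for Cyp2b2, 0.211 for Fn3k and 0.213 for Ugt2b15, while the Gstm1 probe set X04229cds_s_at was at 0.126 and H32189_s_at at 0.243. Cyp2b2, a cytochrome P450 of foreign compound metabolism, went from 1449 ± 163 (SD, n = 4) to 2860 ± 319. Its 2 probe sets rose 1.46-fold and 1.97-fold. Ugt2b15, a glucuronosyltransferase, went from 6066 ± 595 to 10967 ± 502. Ctxn1 was 2.47-fold higher from a low signal of 70.4 ± 10.2, and Fn3k, a kinase acting on sugar-modified proteins, was 1.77-fold higher and passed in 11 of 20 alternatives. That these genes rose follows from how they were chosen, and none of the 5 passed with the actin covariate.

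Hepatocyte markers were bright on all arrays, with a summed signal from 122775 to 187990 in vehicle and from 163131 to 224106 after D3T over 6 genes, none of which passed the test. The actin 3'/5' signal ratio, a measure of RNA integrity, ran from 1.45 to 1.59 in vehicle and from 1.17 to 1.47 after D3T (exact two-sided permutation p = 0.0571), and the GAPDH ratio from 1.70 to 2.18 and from 1.43 to 2.00 (exact p = 0.114). With the actin ratio as a covariate all 3 Gstm1 probe sets still passed, at log2 fold changes of 1.31 for J02810mRNA_s_at, 0.94 for X04229cds_s_at and 1.30 for H32189_s_at (limma adjusted p = 0.0202, 0.0467 and 0.0118). Summed signals of marker lists did not overlap between groups for red blood cells (2 genes, 10707 to 15142 in vehicle and 7124 to 9940 after D3T) and lymphocytes and other leukocytes (5 genes, 484 to 612 and 619 to 745). None of the 2 red blood cell genes or the 3 leukocyte genes tested was called in either direction. Among single probe sets tested, 7.89% had all D3T arrays above all vehicle arrays and 11.3% had all below, a share of probe sets and not of sums. The sums overlapped for macrophages (4 genes, 2586 to 3054 and 2337 to 2891), endothelium (4 genes, 623 to 772 and 430 to 640), stellate cells and fibroblasts (5 genes, 1478 to 2876 and 1182 to 1648) and bile duct (3 genes, 222 to 340 and 255 to 342). Of these lists, Cd14 was called higher (log2 fold change 0.80, limma adjusted p = 0.0105), while the other 2 macrophage markers tested, Clec4f (-0.48, limma adjusted p = 0.0546) and Lyz2 (-0.74, limma adjusted p = 0.0927), had negative values that did not pass. The same lists had Lyve1 (-0.80, limma adjusted p = 0.0474) and Col3a1 (-0.90, limma adjusted p = 0.0399) called lower. Markers of hepatocytes near the central vein had 2 of 5 lower, Oat (-1.98, limma adjusted p = 0.00212) and Cyp1a2 (-1.19, limma adjusted p = 0.00606), against 6.48% lower over all probe sets tested. The sums of this list overlapped (31103 to 38510 and 32723 to 35518). The other 3 central markers did not pass on their brightest probe sets, at -0.47 (Glul), 0.28 (Cyp2e1) and 0.54 (Slc1a2). A second Cyp2e1 probe set, AF056333_s_at, was called higher (0.47, limma adjusted p = 0.031). Markers near the portal tract had none of 5 called (24125 to 30669 and 24803 to 32413). The part of these cell markers in the mu-class changes was not tested.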

How the data were processed

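The authors deposited linear intensities from MAS5, with a value for every probe set on every array, per the submitters' processing notes. The version, scaling target and use of detection calls is not given in the sources used here. Intensities were brought to a common 2% trimmed mean of 500, raised to the 20th percentile (20.4) where lower, and converted to log2. Leaving aside 59 controls, the brightest 60% of 8740 (5244) were tested with limma 3.58.1 in R 4.3.3 (intensity trend, Benjamini-Hochberg adjusted p under 0.05). Differences between genes were tested with exact permutation over 70 assignments, and their confidence intervals use the pooled SD.

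Names came from the platform annotation, with 7006 probe sets matched to 1 symbol, 308 to several and 1426 to none. A gene outside the family was represented by its brightest tested probe set. Named genes were all members, up to 3 genes past the threshold with the largest change per list (or its brightest), and the 5 nearest profiles to Gstm1. Cd14, Lyve1, Col3a1, Clec4f, Lyz2, Oat, Cyp1a2, Glul, Cyp2e1 and Slc1a2 were named after their values were seen. Members and lists were chosen with earlier results of these data known. Promoter windows were matched by symbol for 8 of 9 mu-class genes. The fit was tested on simulated data. Alternatives were other scalings (none, quantile, median, cyclic loess), log2 of signal plus 16, no filter or the brightest 30%, the 40th percentile as floor, other variance models, weights for arrays, replicate number blocked, the actin covariate, probe sets without shared-sequence names, and leaving out each array. Cyclic loess was added after the data were seen.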

Additional observations from a re-analysis of the deposited data

Results flagged for a closer look

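On X04229cds_s_at of Gstm1, vehicle replicate 2 had a signal of 16756, apart from the other 3 vehicle arrays, with a gap to the nearest of 0.874 of the group's range, past the 95% limit of Dixon's test for 4 arrays. It was still below every D3T array, and the log2 fold change without it was 1.16. In all 12 groups of the tested mu-class probe sets were examined in this way, and chance alone gives about 1 in 20.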

How the results depend on the processing

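All 3 Gstm1 probe sets passed as higher, and Gstm7 and Gstm2 on J02592_s_at did not pass, under each of the 21 alternatives, with log2 fold changes from 1.02 to 1.31 (J02810mRNA_s_at), 0.89 to 1.16 (X04229cds_s_at), 1.16 to 1.43 (H32189_s_at), 0.22 to 0.49 (J02592_s_at) and -0.46 to -0.23 (Gstm7). Gstm2 on J03914cds_s_at passed in each except with the actin covariate (0.54, limma adjusted p = 0.192). The count over all probe sets was 560 and became 309 with no filter, 333 when the intensity trend was dropped and 35 given the actin covariate. Without 1 array it ran from 240 to 695, and the fits that moved it by over 1.5 times dropped vehicle replicate 1 (260), 3 (240) or 4 (301), or D3T replicate 1 (279) or 4 (307). With the replicate number as a block it was 290, and 4 mu-class probe sets still passed. Whether the numbers pair the rats is not stated in the labels. Deviations of same-numbered arrays had correlations of 0.06, -0.09, 0.01 and -0.20, which with 4 arrays per group cannot decide it. Over the 5 pathway lists, 20 genes passed, against 13 when the trend was dropped, 6 given the actin covariate, 13 without probe sets marked for shared sequence, which leaves no mu-class probe set tested, and 14 to 19 without 1 array. Without 1 array, Gstm1 differed from Gstm2 by 0.71 to 0.95 and from Gstm7 by 1.43 to 1.76. Gstm2 then differed from Gstm7 by 0.52 to 0.85, past the threshold without D3T replicate 2. Over all 14 alternatives the lowest values were 0.71, 1.27 and 0.47 for these pairs in turn. Both of the lowest values against Gstm7 came with quantile normalization. The cause of these shifts was not tested.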
